A study of Mus musculus with 2 samples.

Results

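The barcodes described here held the most RNA in 2 single-cell libraries from mouse pancreatic tumours. A barcode is the sequence tag of 1 droplet, and a unique molecular identifier (UMI) marks 1 captured RNA molecule. The barcodes were chosen by a rule: more than 60000 UMIs in all and at most 15% of them from mitochondrial genes. Of the 25865 barcodes in both files, 506 met it, with 289 of 12594 (2.29%, 95% interval 2.04 to 2.57) coming from the library labelled KPC-shV and 217 of 13271 (1.64%, 1.43 to 1.87) from the one labelled KPC-shZEB1. The study's own filters removed these barcodes as possible captures of several cells, so they are described here beside the 2916 and 3864 barcodes of 10000 to 60000 UMIs, called mid-range barcodes below. The rule used total UMIs, and the number of UMIs and genes in these barcodes is therefore a description.

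KPC cells are a mouse pancreatic ductal adenocarcinoma line, derived from genetically engineered mice with Pdx-1-Cre, which acts in the pancreas. Both groups were orthotopic allografts, grown in the pancreas from cells with a control vector (KPC-shV) or with a hairpin aimed at ZEB1 (KPC-shZEB1). Each group is 1 tumour, whose dissociated cells went into 1 library of 10x 3' chemistry. The labels give no strain, age or drug, while the methods name C57BL/6J, BALB/c and NSG mice bought at 4 to 6 weeks of age and the study describes its single-cell tumours as gemcitabine-treated. With 1 library per group, hairpin, mouse, tumour, dissociation and library cannot be told apart, no test between groups exists, and all intervals below are 95% intervals for counting error only. Zeb1, a repressor of epithelial genes and the hairpin's target, did not have a lower level where the label names the hairpin. Its level was 134 counts per 1000000 UMIs (CPM) in the high-UMI barcodes labelled KPC-shV and 146 CPM in those labelled KPC-shZEB1, a ratio of 1.09 (1.04 to 1.15), and in epithelial-only barcodes it was 116 and 126 CPM (ratio 1.08, 1.01 to 1.16). The groups are therefore named by their labels throughout.

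A pancreatic tumour holds cancer cells with epithelial keratins, fibroblasts that make collagen, endothelial cells of vessels, and immune cells, mainly macrophages and granulocytes. Cells differ in how much RNA they hold, and large or dividing cells hold more. A droplet that caught 2 cells also holds more, and then carries the markers of both if they are of different lineages. In droplet data, RNA set free by broken cells adds a low, even level of the most abundant transcripts to every droplet, so that 1 UMI of a marker is no sign of a cell type.

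High-UMI barcodes held 19.6% of all UMIs labelled KPC-shV and 13.1% of those labelled KPC-shZEB1. Their median was 79697 UMIs (range 60155 to 387519) and 76610 UMIs (60086 to 222302), with medians of 8849 and 9007 detected genes against 5081 and 4919 in mid-range barcodes. When every barcode was thinned at random to 10000 UMIs, the medians were 3740 against 3410 genes and 3801 against 3406 genes. These medians are over all lineages, whose mix differed between the UMI ranges. Among epithelial-only barcodes, called as described below, they were 3738 against 3646.5 and 3815 against 3738 genes, a smaller gap. No barcode above 60000 UMIs was lost to the mitochondrial limit. Ribosomal protein genes gave 13.7% of UMIs against 10.5% in mid-range barcodes of the first library and 12.7% against 9.59% in the second. These shares are over all lineages too. Of all barcodes, 46 sequences occurred in both libraries, and 0 of them were high-UMI barcodes in either.

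Lineages were called on the thinned counts. A lineage was called where at least 10 of the 10000 UMIs fell on its marker list and at least 3 of its markers were seen, and related lists were joined into 8 compartments. High-UMI barcodes were mostly epithelial. The epithelial list (Krt8, Krt18, Krt19, Krt7, Epcam, Cdh1 and Cldn7) passed in 224 of 289 (77.5%, 72.3 to 82.2) labelled KPC-shV and in 181 of 217 (83.4%, 77.8 to 88.1) labelled KPC-shZEB1. In mid-range barcodes it passed in 27.9% and 27.0%. The intervals do not overlap in either library.

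**Figure D1:**
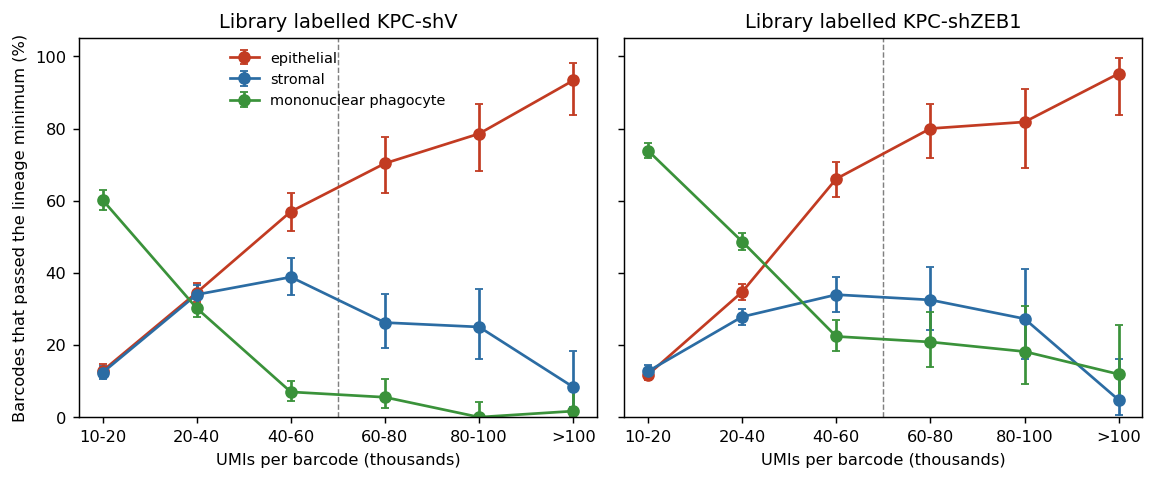
Share of barcodes (%) in which the epithelial, stromal and mononuclear phagocyte lists passed at equal depth of 10000 UMIs, by total UMIs per barcode; bars are 95% binomial intervals and the dashed line marks 60000 UMIs. The epithelial share climbs from 12.8% and 11.8% at 10000 to 20000 UMIs to 93.3% and 95.2% above 100000, while the mononuclear phagocyte share falls from 60.2% and 73.9% to 1.67% and 11.9%.

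The change of lineage with UMI total had no step at 60000 UMIs. The epithelial share was 57.0% and 66.1% at 40000 to 60000 UMIs, 70.3% and 80% at 60000 to 80000, and 93.3% (56 of 60) and 95.2% (40 of 42) above 100000. Just outside the threshold, at 55000 to 60000 UMIs, it was 66.0% of 53 and 73.7% of 57 barcodes, and just inside, up to 65000 UMIs, 70.6% of 51 and 79.5% of 39. Stromal barcodes peaked lower, with 38.8% and 33.9% at 40000 to 60000 UMIs and 8.33% (5 of 60) and 4.76% (2 of 42) above 100000.

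Immune lineages were rarer among high-UMI than among mid-range barcodes, and stromal ones were not rarer in both libraries. The stromal compartment (fibroblast and mural lists) passed in 64 (22.1%) labelled KPC-shV and 56 (25.8%) labelled KPC-shZEB1, against 25.2% and 21.3% of mid-range barcodes. Macrophages, monocytes and dendritic cells, together the mononuclear phagocytes, made up 9 (3.11%) and 40 (18.4%) against 40.3% and 57.9%. With a minimum of 20 UMIs those counts were 5 (1.73%) and 10 (4.61%) against 35.5% and 48.3%. The 24 barcodes labelled KPC-shZEB1 that were epithelial as well had a median of only 7.80 macrophage UMIs per 10000. The general immune list passed in 7 (2.42%) and 13 (5.99%) against 47.6% and 60.8%. Endothelial markers passed in 5 and 2 high-UMI barcodes. T and NK markers passed in 0 and 1, and B cell and acinar markers in 0 of either library, where 0 of 289 and 0 of 217 barcodes allow shares of up to 1.04% and 1.38%. The stromal call rested largely on collagens. With Col1a1, Col1a2 and Col3a1 left out of the fibroblast list, it passed in 4.84% and 4.15%. The minimum of 10 UMIs and 3 markers was kept for the shorter list, so the share could only fall. No mid-range share is given beside it.

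The single lineage genes are given next as CPM over all high-UMI barcodes. They are members of the marker lists, so they are not separate evidence for the calls. Krt8 and Krt18, the paired keratins of simple epithelium, stood at 1504 and 1661 CPM in high-UMI barcodes labelled KPC-shV against 674 and 704 CPM in mid-range ones. The values labelled KPC-shZEB1 were 1762 and 1838 CPM against 686 and 686 CPM. On GRCm38 (GENCODE M21) they are neighbours, at chr15:101996698-102004482 (minus strand) and chr15:102028180-102032027 (plus strand). Both keratins were thus 2.23 to 2.68 times as high in the summed high-UMI RNA. Col1a1, a chain of type I collagen at chr11:94936224-94953042, ran the other way, at 754 against 1614 CPM (ratio 0.467) and 1073 against 1700 CPM (0.631). The share of stromal calls, in contrast, was not lower in both libraries.

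Markers of blood and vessel cells were also lower. C1qa, a complement chain made by macrophages (chr4:136895917-136898803), was at 103 against 722 CPM (ratio 0.143, 0.138 to 0.149) in the library labelled KPC-shV and at 290 against 1510 CPM (0.192, 0.187 to 0.197) in the other. Ptprc, which encodes the leukocyte antigen CD45, was at 44.1 against 240 CPM and 72.8 against 325 CPM. Cdh5, the cadherin of endothelial junctions, was at 22.3 against 37.8 CPM and 6.002 against 20.2 CPM. Of the 289 barcodes labelled KPC-shV, 3 were endothelial alone, and these held Cdh5 at 1436 CPM, against 2.78 CPM in the epithelial-only ones. Cdh5 is on the endothelial list that defines the class, so this gap follows largely from the class rule.

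Single UMIs of these genes were common in barcodes of any type. At 10000 UMIs, 53.3% and 92.6% of high-UMI barcodes had a C1qa UMI, and 73.7% and 88.5% a Col1a1 UMI. In mid-range barcodes with mononuclear phagocyte markers alone, which should lack keratins, 66.0% and 72.8% had a Krt8 UMI. Summed levels were also compared between classes. Epithelial-only high-UMI barcodes (151 and 127) held C1qa at 81.2 and 233 CPM, mid-range epithelial ones at 80.3 and 245 CPM, and mid-range T and NK barcodes at 72.7 and 240 CPM, whereas mid-range mononuclear phagocytes held 2462 and 3316 CPM. Col1a1 was at 126 and 185 CPM in epithelial-only high-UMI barcodes and at 135 and 197 CPM in T and NK barcodes. In both cases the level in high-UMI epithelial-only barcodes was close to that of T and NK barcodes in the same library. For C1qa it differed more between the libraries than between the UMI ranges. Both classes hold only barcodes that failed the macrophage and fibroblast lists, which include these genes. Low levels therefore partly follow from the class rule, and how much of them was background RNA was not tested.

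**Figure D2:**
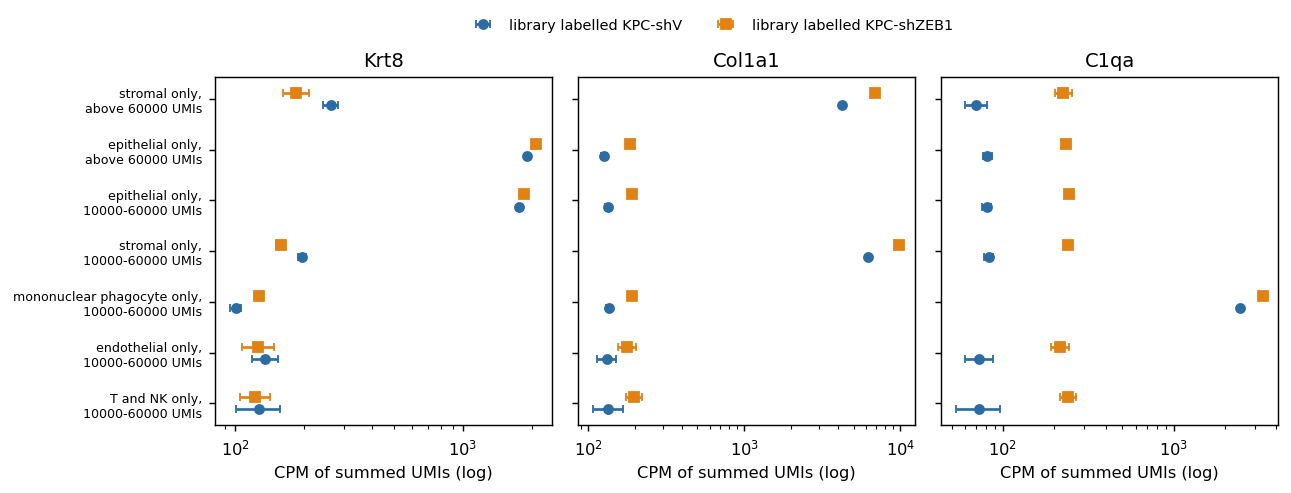
Level (CPM of summed UMIs, log axis) of Krt8, Col1a1 and C1qa by lineage class and library; bars are 95% Poisson intervals and many are narrower than the symbols. C1qa in high-UMI epithelial-only barcodes (81.2 and 233 CPM) lies at the level of T and NK barcodes (72.7 and 240 CPM), far below mononuclear phagocytes (2462 and 3316 CPM).

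Whole lists were read in the same way, in classes called at a minimum of 20 UMIs. The granulocyte list had a median of 6.89 UMIs per 10000 in the 189 high-UMI epithelial barcodes labelled KPC-shV. It was 7.19 in mid-range epithelial ones and 6.88 in mid-range T and NK barcodes. Barcodes that passed the granulocyte list at 20 UMIs are left out of these classes, which limits the level. Its level therefore lay close to the minimum of 10 in all of them. In the library labelled KPC-shZEB1 that list stood at 3.66 per 10000, and the macrophage list at 6.46 per 10000 against 2.49 in the other library. This matters for the count of barcodes that carry more than 1 lineage.

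With the minimum of 10 UMIs, 88 of 289 (30.4%) and 67 of 217 (30.9%) high-UMI barcodes passed 2 or more compartments, against 33.7% and 22.2% of mid-range barcodes. The commonest combination was epithelial with granulocyte (50 barcodes) for the label KPC-shV and epithelial with mononuclear phagocyte (24 barcodes) for the label KPC-shZEB1. In each library the partner list was the one with the higher median above, and whether background gave these calls was not tested. Raising the minimum to 20 UMIs left 16 of 289 (5.54%, 3.20 to 8.84) and 11 of 217 (5.07%, 2.56 to 8.89), against 8.44% and 4.94% of mid-range barcodes. At that minimum the epithelial share was 69.9% and 74.7%. Among high-UMI barcodes that were epithelial at 20 UMIs, another compartment was seen in 13 of 202 (6.44%) and 8 of 162 (4.94%), against 13.1% and 8.13% in mid-range epithelial barcodes. After thinning, a small partner cell gives a lower share of the UMIs in a larger barcode. Mixtures are therefore harder to see among high-UMI barcodes, and these shares do not show that mixtures were rarer there.

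The 27 barcodes mixed at 20 UMIs were of 8 kinds. Epithelial with granulocyte markers made up 8, all labelled KPC-shV, with 21.01 to 51.9 granulocyte UMIs per 10000. Epithelial with mononuclear phagocyte markers made up 1 there and 5 in the other library, and their macrophage list ran from 24.8 to 48.3 per 10000. Epithelial with stromal markers made up 3 in each library. One of these, with 85478 UMIs, held 61.8 epithelial, 136 fibroblast and 0.936 Xist UMIs per 10000. Another, with 71774 UMIs, held 43.9, 82.2 and 3.34. The share called mixed did not grow with the UMI total. Above 100000 UMIs, 3 of 60 and 0 of 42 barcodes were mixed at 20 UMIs, and 0 of 42 allows a share of up to 7.14% by that rule. Calls were made on thinned counts, where the markers of a small partner cell are diluted as the total rises. The minimum is therefore harder to pass at high totals, and how many mixtures went unseen there was not tested.

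Doublet scores differed in both directions. Scrublet, which compares each barcode with simulated sums of 2 barcodes, scored 4 high-UMI barcodes (1.38%) labelled KPC-shV and 5 (2.30%) labelled KPC-shZEB1 above 0.2. Among mid-range barcodes it scored 74 (2.54%) and 134 (3.47%) above that value. The median score was higher in high-UMI barcodes, at 0.0721 against 0.0644 and 0.0639 against 0.0508. Neither a lineage mixture nor this score sees 2 cells of the same type in 1 droplet, and such pairs cannot be told apart from single cells with much RNA in these counts. The lineage rule can also miss a small partner cell of another type in a barcode of high total.

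Xist, the RNA that coats the inactive X chromosome of female cells, divided the barcodes further. Most high-UMI barcodes nearly lacked it. Under 1 Xist UMI per 10000 was found in 236 of 289 (81.7%, 76.7 to 86.0) and 175 of 217 (80.6%, 74.8 to 85.7), against 36.4% and 26.1% of mid-range barcodes. The Y-linked genes Ddx3y, Eif2s3y, Kdm5d and Uty were nearly absent too, with Ddx3y at 1.09 and 1.38 CPM and at most 1 UMI of any other, so low Xist did not go with a Y chromosome signal. Of the epithelial-only high-UMI barcodes, 142 of 151 and 122 of 127 had under 1 Xist UMI per 10000, with medians of 0.243 and 0.353. Summed over classes, Xist was at 32.6 and 62.3 CPM in epithelial-only high-UMI barcodes, at 222 and 250 CPM in stromal-only ones, and at 805 and 756 CPM in the 1 and 2 with mononuclear phagocyte markers alone. T and NK barcodes of the mid range held 1013 and 731 CPM.

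**Figure D3:**
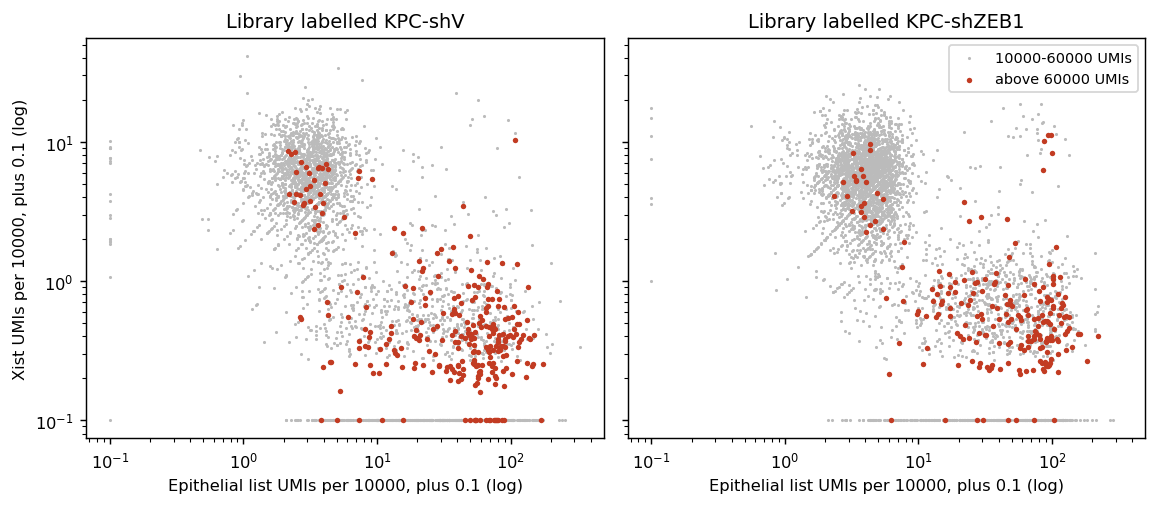
Each point is 1 barcode, placed by its epithelial list UMIs per 10000 (x) and its Xist UMIs per 10000 (y), both with 0.1 added and on log axes; red points are above 60000 UMIs and grey points have 10000 to 60000. Most red points lie at high epithelial and low Xist values (81.7% and 80.6% under 1 Xist UMI per 10000), and a second group lies at low epithelial and high Xist values.

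Stromal barcodes without epithelial calls split into 2 sets by Xist. Of 46 such high-UMI barcodes labelled KPC-shV, 19 had under 1 Xist UMI per 10000, 27 had 2 or more and 0 lay between, which allows up to 3 barcodes there. The 30 labelled KPC-shZEB1 divided into 7, 21 and 2. The Xist-bearing set held the fibroblast list at medians of 164 and 203 per 10000. The Xist-poor set held it at 16.0 and 14.6 per 10000, not far above the minimum for the call. It also held more mitotic RNA in the library labelled KPC-shV (G2M list 66.0 against 13.6 per 10000), but not in the other (24.8 against 27.4). These sets were formed after the values had been seen, and they are a description.

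A few epithelial barcodes were rich in Xist. At 20 or more epithelial and 5 or more Xist UMIs per 10000, limits set after the values were seen, there were 1 high-UMI barcode labelled KPC-shV and 5 labelled KPC-shZEB1. They held 6.15 to 11.1 Xist UMIs per 10000, 85.6 to 108 epithelial UMIs per 10000 and 12.6 to 15.2 G2M UMIs per 10000. That G2M level was below the median of epithelial-only barcodes in both libraries. Each had 80 to 217 UMIs of Epcam, an epithelial adhesion molecule, and 12 to 33 UMIs of Sox9, a transcription factor of pancreatic ducts. Their macrophage list was at 2.06 to 7.44 per 10000 and none scored above 0.2 for doublets. Mid-range barcodes within the same limits numbered 15 and 30.

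High-UMI barcodes that passed no compartment were few and strongly mitotic. There were 12 (4.15%) labelled KPC-shV and 4 (1.84%) labelled KPC-shZEB1, against 4.90% and 3.83% of mid-range barcodes. Their Krt8 level, 454 and 511 CPM, was below that of epithelial-only barcodes (1902 and 2082 CPM) and above that of T and NK barcodes (127 and 123 CPM). The lower level than in epithelial-only barcodes follows largely from the class rule, because Krt8 is on the epithelial list. Xist was at 36.9 and 38.7 CPM. Their G2M list gave 8668 and 8823 CPM, compared with 3175 and 3109 CPM in mid-range barcodes of no compartment.

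The cell cycle was then compared among epithelial-only barcodes, so that barcodes called for other compartments did not enter. Differences within the epithelial class, such as those in Epcam given below, remained. Ratios with mixed barcodes kept are given at the end. The S-phase list has 43 genes of DNA replication and the G2M list 54 genes of mitotic entry and division. G2M genes gave 4082 CPM in high-UMI barcodes against 2890 CPM in mid-range ones labelled KPC-shV, a ratio of 1.41 (1.40 to 1.43). In the library labelled KPC-shZEB1 they gave 4509 against 3445 CPM (1.31, 1.29 to 1.32). The S-phase list gave smaller ratios, with 1588 against 1345 CPM (1.18) and 1786 against 1551 CPM (1.15).

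Medians per barcode differed more than sums. The G2M list stood at a median of 26.5 UMIs per 10000 (quartiles 15.6 and 61.7) in high-UMI barcodes labelled KPC-shV, against 16.3 (13.5 and 23.4) in mid-range ones. For the library labelled KPC-shZEB1 the medians were 43.5 (18.4 and 61.6) against 17.6 (14.0 and 36.6). The lower quartiles were close and the upper ones far apart, so high-UMI barcodes spanned low and high mitotic levels. Mki67, the proliferation antigen Ki-67, or Top2a, the mitotic topoisomerase, was seen at 10000 UMIs in 59.6% (51.3 to 67.5) against 41.3%, and in 74.8% (66.3 to 82.1) against 55.5%. Such UMIs were not limited to this class. Mki67 alone was seen in 33.9% and 46.2% of mid-range mononuclear phagocytes, against 46.4% and 66.9% of high-UMI epithelial-only barcodes. How far these UMIs came from background RNA or from dividing phagocytes was not tested.

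**Figure D4:**
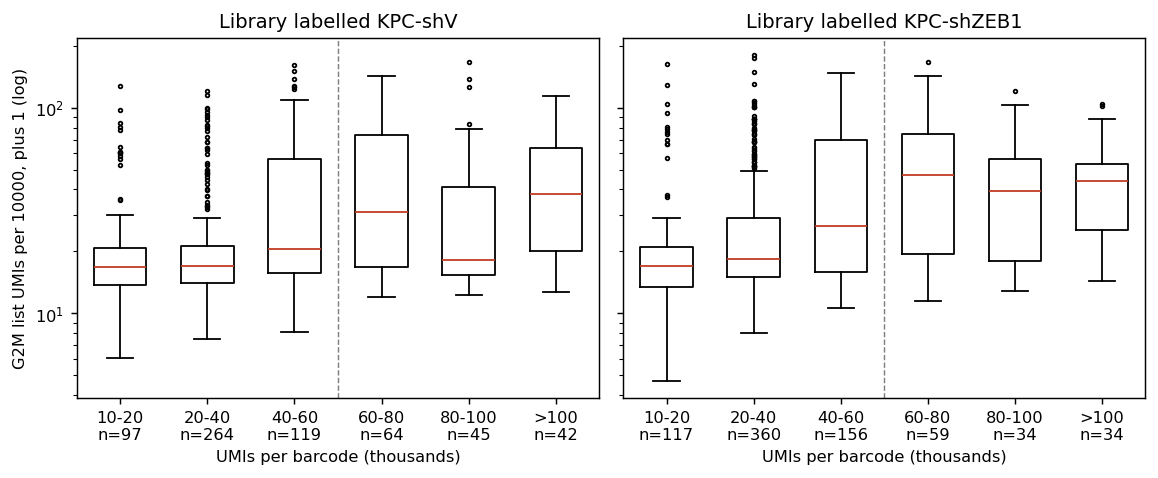
G2M list UMIs per 10000, with 1 added and on a log axis, in epithelial-only barcodes by total UMIs per barcode; boxes show quartiles and medians, whiskers reach the farthest value within 1.5 box heights, and circles are barcodes beyond. The upper part of the boxes widens from 40000 UMIs on, on both sides of the dashed line at 60000 UMIs.

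Sums and medians placed the difference at different totals. The summed G2M list in epithelial-only barcodes was at 2267 CPM at 20000 to 40000 UMIs, 3916 CPM at 40000 to 60000 and 4338 CPM at 60000 to 80000 in the library labelled KPC-shV. The values in the other library were 2857, 4564 and 5016 CPM. Above 80000 UMIs it was no higher, with 3440 CPM at 80000 to 100000 and 4328 CPM above 100000 in the first library and 4194 and 4280 CPM in the second. Against barcodes of 30000 to 60000 UMIs alone, the G2M ratio was 1.25 and 1.11, and the S-phase ratio 1.07 and 0.972. Medians per barcode differed on both sides of the threshold, at 15.9, 19.6 and 29.9 UMIs per 10000 in the same 3 ranges labelled KPC-shV and at 17.3, 25.5 and 46.05 labelled KPC-shZEB1. They did not rise steadily. At 80000 to 100000 UMIs the medians were lower, at 17.1 (45 barcodes) and 38.3 (34), and above 100000 they were 36.9 (42) and 42.9 (34). Just outside the threshold the median G2M level was 17.9 (21 epithelial-only barcodes) and 28.9 per 10000 (22), and just inside it was 44.1 (26) and 46.0 (21).

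Stromal-only barcodes showed a larger gap. Their G2M list gave 4802 CPM in 33 high-UMI barcodes against 1701 CPM in 417 mid-range ones labelled KPC-shV, and 3715 CPM in 17 against 1435 CPM in 404 labelled KPC-shZEB1. The Xist-poor set described above is part of these sums.

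Single genes were compared in the same epithelial-only barcodes, summed per UMI range and library. A gene was counted where log2 of CPM plus 1 differed by more than 1.5-fold in the same direction in both libraries. Of 7025 genes with a mean of at least 20 CPM, 18 were higher (0.256%) and 16 lower (0.228%) in high-UMI barcodes, and the median log2 ratio over all of them was -0.02 in both libraries. By this measure few genes separated the UMI ranges within the epithelial compartment.

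Genes of mitosis led the higher side. Ube2c, the ubiquitin enzyme of the anaphase-promoting complex, was at 172 against 73.3 CPM (ratio 2.34, 2.18 to 2.52) in the library labelled KPC-shV and at 182 against 85.6 CPM (2.12, 1.99 to 2.26) in the other. Cdk1, the kinase that drives mitotic entry, was at 58.5 against 26.8 CPM and 62.3 against 33.6 CPM. Its partner Ccnb1, cyclin B1, was at 39.0 against 15.5 CPM and 45.7 against 27.4 CPM. Plk1, a kinase of spindle and centrosome, was at 24.0 against 13.0 CPM and 29.1 against 16.0 CPM. Aurka, Cenpf, Nusap1 and Aspm, all of the spindle or kinetochore, had log2 ratios of 0.69 to 1.11. Of these 8 genes, 5 belong to the G2M list. No single barcode held more than 7.69% of the UMIs of any of the 8 in either library. Of the G2M list's 42 tested genes, 7 were counted as higher and 0 as lower, with median log2 ratios of 0.55 and 0.44. None of the 27 tested S-phase genes was counted in either direction (medians 0.16 and 0.20). The most abundant G2M genes had smaller ratios, with Hmgb2, a chromatin protein, at 439 against 305 CPM and 457 against 358 CPM, and Tubb4b and Jpt1 at log2 ratios of 0.28 to 0.46. Nasp, a histone chaperone, and Pcna, the replication clamp, had log2 ratios of 0.10 to 0.21, and Slbp, which binds histone transcripts, -0.12 and -0.16.

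Fewer genes passed when the lower range was set closer to the threshold. Of 7006 genes tested against epithelial-only barcodes of 30000 to 60000 UMIs, 4 were higher and 8 lower.

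The promoters of the mitotic genes are shown because they stood together on the higher side. Genes of late cell cycle often carry CCAAT boxes and a nearby element with the letters TTTGAA or TTTAAA, the cell cycle homology region. The lines give the 120 bases before the annotated start, 5' to 3' on the gene's strand, from RefSeq on GRCm38.p6, with those letters on either strand in capitals. Ube2c is at chr2:164769809-164769928 (plus strand), Cdk1 at chr10:69352913-69353032 (minus), Plk1 at chr7:122159315-122159434 (plus) and Ccnb1 at chr13:100786487-100786606 (minus).
Ube2c: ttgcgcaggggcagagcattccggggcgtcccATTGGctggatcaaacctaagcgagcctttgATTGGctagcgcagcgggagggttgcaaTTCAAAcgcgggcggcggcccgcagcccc
Cdk1: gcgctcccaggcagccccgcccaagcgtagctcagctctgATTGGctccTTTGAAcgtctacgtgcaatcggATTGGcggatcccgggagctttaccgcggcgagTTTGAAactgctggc
Plk1: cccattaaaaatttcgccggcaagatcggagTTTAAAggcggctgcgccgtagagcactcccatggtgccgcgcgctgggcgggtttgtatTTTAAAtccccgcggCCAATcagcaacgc
Ccnb1: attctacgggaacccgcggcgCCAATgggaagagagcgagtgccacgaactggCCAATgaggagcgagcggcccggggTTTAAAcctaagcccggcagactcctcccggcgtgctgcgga
In windows of 300 bases, 250 before to 50 after the start, both kinds of letters were found for 7 of the 8 mitotic genes, all but Nusap1. TTTGAA or TTTAAA occurred in 27.6% of all 32851 such windows, CCAAT in 37.4% and both in 10.7%. The match is of letters only.

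Reg1 and Reg3b, secreted proteins of injured acinar and epithelial cells, also stood among the 10 highest, but on single barcodes. Reg1 was at 30.3 against 13.3 CPM labelled KPC-shV and at 74.8 against 35.2 CPM labelled KPC-shZEB1. One barcode held 54.99% of its 882 UMIs in the latter library, and without that barcode the level was 33.9 CPM, with a log2 ratio of -0.05. This barcode, with 485 Reg1 UMIs and 97 of Cftr, the chloride channel of ducts, was 1 of the 6 rich in Xist. Reg3b was at 33.3 against 14.2 CPM and at 68.4 against 38.5 CPM, and 1 barcode labelled KPC-shV held 65.6% of its UMIs there. Without it the level was 11.6 CPM. Mid-range T and NK barcodes held 10.8 and 27.5 CPM of Reg1, so the mid-range values were near background.

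Among the lower genes, Malat1 was by far the most abundant. This long RNA of nuclear speckles was at 6731 against 11503 CPM (ratio 0.585, 0.581 to 0.590) in the library labelled KPC-shV and at 6810 against 10918 CPM (0.624, 0.619 to 0.629) in the other. Neat1, the scaffold of paraspeckles, was at 1155 against 1611 CPM and 1092 against 1513 CPM, and did not reach 1.5-fold. Gas5, another long RNA, had log2 ratios of 0.15 and -0.05. The 6 tested genes of the nuclear RNA list had medians of -0.35 and -0.38. Genes that span over 100000 bases gave 14.6% of UMIs against 17.2% in mid-range barcodes of all lineages, and 15.5% against 17.5%. Of the 10 lowest genes, Sntg1, Hdac9, Edil3, Cmss1 and Tcf7l1 span more than 100000 bases; the part of gene length in their values was not tested. Sntg1, a syntrophin, was at 15.01 against 58.0 CPM and 28.9 against 58.6 CPM. Edil3, a secreted integrin ligand, was at 12.6 against 28.0 CPM and 16.2 against 49.2 CPM. Hdac9, a histone deacetylase, was at 94.3 against 155 CPM and 173 against 305 CPM.

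The remaining lower genes named by rank were of mixed function. Bnip3, a mitochondrial protein induced in hypoxia, was at 45.9 against 82.5 CPM and 33.2 against 54.8 CPM, and it was the 1 of 13 tested glycolysis and hypoxia genes counted as lower (list medians -0.31 and -0.21). Gapdh, Pkm and Ldha of that list had log2 ratios of -0.08 to 0.12. Twist2, a mesenchymal transcription factor, was at 56.1 against 91.4 CPM and 37.5 against 65.9 CPM. Mgp, an inhibitor of matrix calcification, was at 69.9 against 117 CPM and 71.8 against 116 CPM. Tcf7l1, Cmss1 and Gc had log2 ratios of -0.65 to -1.18.

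**Figure D5:**
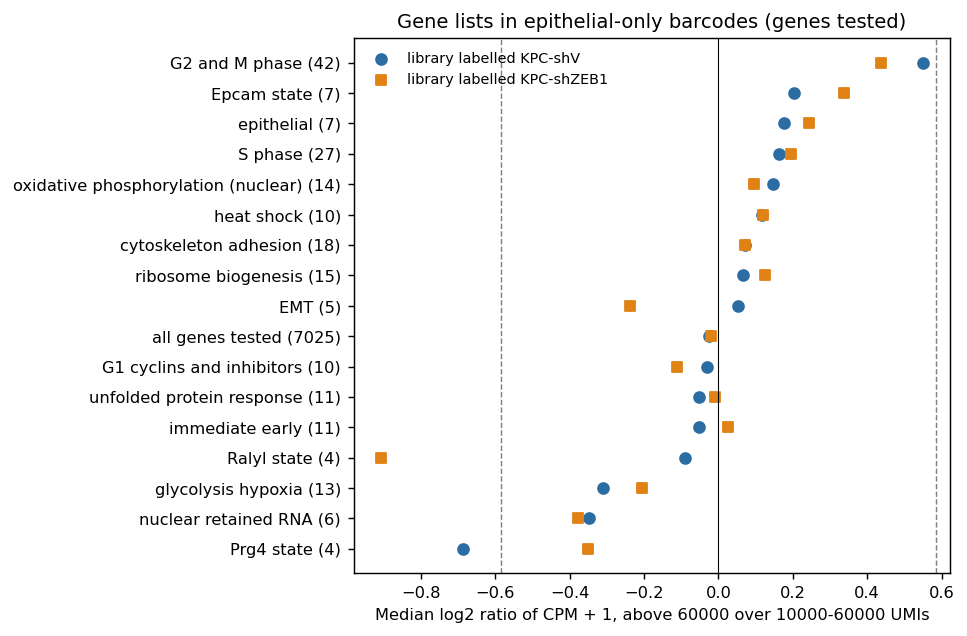
Median log2 ratio of CPM plus 1 in epithelial-only barcodes, above 60000 over 10000 to 60000 UMIs, for the gene lists reported here with at least 4 tested genes (number tested in brackets); circles are the library labelled KPC-shV, squares the library labelled KPC-shZEB1, and dashed lines mark 1.5-fold. The G2M list has the highest medians (0.55 and 0.44), and all tested genes have -0.02 in both.

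Lists of growth, energy and stress lay nearer the median of all genes. Ribosome biogenesis, with Npm1, Ncl and Nop58 as its most abundant genes, had medians of 0.07 and 0.13 over 15 genes, none of them counted. The nuclear-encoded genes of oxidative phosphorylation (Cox4i1, Atp5b, Ndufa4) had medians of 0.15 and 0.10 over 14, and the heat shock list (Hsp90ab1, Hspa8, Hsp90aa1) 0.12 and 0.12 over 10. The unfolded protein response (Hspa5, Atf3, Calr), immediate early (Fos, Junb, Egr1), cytoskeleton (Actb, Fn1, Vim), G1 cyclin (Cdk6, Ccnd1, Cdkn2a) and mesenchymal transition lists held no counted gene. Fn1, fibronectin, was at 1701 against 2328 CPM and 1490 against 1758 CPM. Vim, vimentin, was at 1315 against 1163 CPM and 946 against 1223 CPM. Cdkn1a, an inhibitor that halts the cycle, was at 108 against 120 CPM and 149 against 151 CPM. Cdkn2a, which encodes p16 and p19 in the mouse, was at 269 against 267 CPM and 378 against 366 CPM. Actb, cytoplasmic actin, was at 6723 against 5937 CPM and 7191 against 6103 CPM.

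Myc, a growth-promoting transcription factor, differed little, at 234 against 221 CPM and 218 against 209 CPM. Zeb1 was at 116 against 140 CPM (ratio 0.832, 0.780 to 0.888) and at 126 against 178 CPM (0.709, 0.667 to 0.753), lower in high-UMI barcodes of both libraries and under 1.5-fold.

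Tumour cells of these libraries carry an epithelial programme marked by Epcam and others marked by Prg4 or Ralyl, lists that were chosen on these same libraries. The epithelial list had medians of 0.18 and 0.24 over its 7 tested genes, with Krt8 at 1902 against 1756 CPM and 2082 against 1851 CPM. Epcam was seen at 10000 UMIs in 66.9% of 151 against 57.3% of 480 epithelial-only barcodes, and in 77.2% of 127 against 62.4% of 633, with a background of 19.7% and 23.4% in mononuclear phagocytes. Cldn7, a claudin of tight junctions, was at 207 against 142 CPM and 173 against 88.2 CPM. The Prg4 list (Cntn5, Pcdh7, Grem1, Prg4) had medians of -0.69 and -0.35. Prg4, lubricin, was at 37.1 against 98.4 CPM for the label KPC-shV and at 21.5 against 21.8 CPM for the other. Ralyl, an RNA-binding protein of the nervous system, was seen in 14.96% of high-UMI and 19.1% of mid-range epithelial-only barcodes labelled KPC-shZEB1, and in 0.662% and 1.04% of those labelled KPC-shV. The Ralyl list had medians of -0.09 and -0.91 over 4 genes. The level of Ralyl under the former label was 43.2 against 88.3 CPM.

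The high-UMI epithelial-only barcodes of the 2 libraries were then compared with each other. Of 7003 genes tested, 216 were more than 1.5-fold higher (3.08%) and 60 lower (0.857%) in the library labelled KPC-shZEB1, and the median log2 ratio was 0.03. Part of these differences was also seen in cells of other lineages. Mid-range T and NK barcodes differed in the same direction by more than 1.5-fold for 94 of the 216 (43.5%) and 20 of the 60 (33.3%). Over all 7003 genes, these T and NK sums, from 41 and 88 barcodes, were past 1.5-fold higher for 15.3% and lower for 5.44%. Stromal-only mid-range barcodes shared the direction for 88 (40.7%) and 25 (41.7%), against 2.44% and 5.41% of all genes.

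Among the 5 highest genes, Try4 and Ctrb1 are digestive enzymes of acinar cells. Try4 was at 2.28 CPM labelled KPC-shV and 40.3 CPM labelled KPC-shZEB1, and in mid-range T and NK barcodes at 3.09 and 41.5 CPM. Ctrb1 was at 17.9 and 103 CPM, and in T and NK barcodes at 18.6 and 102 CPM. The level in tumour cells was that of unrelated cells for both. C1qa (81.2 and 233 CPM) and S100a9, a granulocyte protein (364 and 188 CPM, against 348 and 188 CPM in T and NK barcodes), followed the same pattern.

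Ralyl and Zfp804b are both of the Ralyl list, which was chosen on these same libraries. Ralyl was at 2.92 and 43.2 CPM (ratio 14.8, 10.8 to 20.9), with 0 UMIs and 4.02 CPM in T and NK barcodes. It was seen in 60 of 127 high-UMI epithelial-only barcodes labelled KPC-shZEB1 and in 16 of 151 labelled KPC-shV at full depth. Zfp804b, a zinc finger protein, was at 24.5 and 150 CPM, and no T and NK level is given for it. Few barcodes held most UMIs of both genes. The top 5 held 73.2% and 53.2% of the Ralyl UMIs labelled KPC-shV and KPC-shZEB1. For Zfp804b they held 76.2% and 58.1%. The fifth, Gm30835, a long non-coding RNA, was at 4.34 and 45.8 CPM, but 1 barcode held 95.7% of its UMIs labelled KPC-shZEB1, and without the top barcode of each library the levels were 1.86 and 1.99 CPM.

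On the lower side stood Tff1, Rbp4, Prl2c2, Gc and 2310057J18Rik. Tff1, a trefoil peptide of mucous epithelium, was at 64.1 and 3.65 CPM. One barcode labelled KPC-shV held 83.0% of its 901 UMIs, and without the top barcode of each library the levels were 10.9 and 0.853 CPM. Rbp4, the retinol carrier, was spread over 104 of 151 barcodes and was at 71.9 and 26.6 CPM (ratio 0.370, 0.325 to 0.421). Gc, the vitamin D binding protein, was at 30.0 and 11.4 CPM and Prl2c2, a prolactin-family hormone also called proliferin, at 34.1 and 12.5 CPM. The uncharacterised gene 2310057J18Rik was at 44.8 and 17.6 CPM.

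Single genes of the cell cycle and epithelial lists did not pass 1.5-fold between the libraries, while levels per barcode differed for the G2M list. Its medians were 26.5 and 43.5 UMIs per 10000, and Mki67 was seen in 46.4% and 66.9% at equal depth. The gap depended on the lineage minimum. With 20 UMIs the G2M medians of epithelial-only barcodes were closer, at 30.3 (189 barcodes) and 39.2 per 10000 (154). None of the 42 tested G2M genes and none of the 29 tested S-phase genes passed 1.5-fold (medians 0.11 and 0.19), and none of the 7 epithelial genes did (median 0.25). Of the heat shock list 1 of 10 passed, Hspa1b, at 375 and 159 CPM. Vegfa, the endothelial growth factor, was the 1 of 13 glycolysis and hypoxia genes to pass, at 146 and 92.8 CPM. Cdk6, a G1 kinase, was at 592 and 895 CPM, just past 1.5-fold.

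Most of the largest single barcodes were epithelial with little Xist. The first held 387519 UMIs and 12645 genes in the library labelled KPC-shV, with 80.4 epithelial and 48.8 G2M UMIs per 10000 and 11 Xist UMIs in all. The next was a fibroblast by its markers, with 221643 UMIs, 206 fibroblast UMIs per 10000 and 50 Xist UMIs. The largest one labelled KPC-shZEB1, at 222302 UMIs, held 48.7 epithelial UMIs per 10000 and 13 Xist UMIs. All 5 largest barcodes of that library, and 4 of the 5 of the other, passed the epithelial list at 10 UMIs.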

How the data were processed

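Single-cell RNA was measured in 2 tumour libraries, 1 per group. The deposited values are raw counts of UMIs per gene and barcode, made by the authors with Cell Ranger 7.0.1 on mm10 and deposited as filtered matrices; whether intron reads were counted is not given in the sources used here. The libraries held 130941086 (KPC-shV) and 143461224 (KPC-shZEB1) UMIs. Barcodes above 60000 UMIs with at most 15% mitochondrial UMIs were taken without clustering. Each was thinned once to 10000 UMIs with a fixed seed. Doublets were scored with Scrublet in Scanpy 1.11.5 and kept. CPM are sums over barcodes of a class. Genes with a mean of at least 20 CPM over the sums compared were tested as log2 of CPM plus 1, with a call past 1.5-fold, and no p-value was computed. Shares carry Clopper-Pearson intervals, levels exact Poisson intervals and ratios exact conditional intervals (SciPy 1.17.1). Limits for a count of 0 use 3 counts. Scripts were tested on simulated counts.

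The genes named are the lineage, target, cycle and sex genes fixed in the plan, the 10 highest and 10 lowest by the smaller of the libraries' log2 ratios, the 5 highest and 5 lowest between libraries, and the 3 most abundant of each list. Others named were chosen after their values were seen. Members and lists were chosen with earlier results of these data known. Coordinates are 1-based. Promoters come from RefSeq on GRCm38.p6. Some planned genes and lists are not reported here.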

Additional observations from a re-analysis of the deposited data

Results flagged for a closer look

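Muc13, a mucin of epithelial surfaces, differed in opposite directions between the UMI ranges in the 2 libraries. In epithelial-only barcodes it was at 34.0 CPM above 60000 UMIs against 71.2 CPM at 10000 to 60000 in the library labelled KPC-shV (log2 ratio -1.04) and at 77.0 against 49.4 CPM in the library labelled KPC-shZEB1 (log2 ratio 0.63). It was the only gene of the 7025 past 1.5-fold in opposite directions, and the difference between the libraries was not tested. Few barcodes carried it: 52 of 151 and 55 of 127 had a Muc13 UMI, and 5 barcodes held 63.4% and 54.2% of its UMIs.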

How the results depend on the processing

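All values rest on 1 library per group, so no library could be left out. No paired analysis was possible because each group has a single library and the labels give no replicate number. Of the values that answer a comparison, 53 stayed within their counting interval or within 1.5-fold across the alternatives and 53 did not. Of the values for single genes, 404 stayed, 81 moved and 11 changed sign. Values below are in the order KPC-shV, KPC-shZEB1, and the cause of the changes was not tested.

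A threshold of 50000 UMIs gave 415 and 345 barcodes, and 80000 UMIs gave 144 and 97. With a lineage minimum of 5 UMIs the epithelial share was 82.4% and 90.8%, the stromal share 50.5% and 67.7% and the mixed share 77.9% and 93.1%. With 20 UMIs they were 69.9% and 74.7%, 16.3% and 12.9%, and 5.54% and 5.07%. Above 80000 UMIs the epithelial share was 84.7% (KPC-shV), and the stromal and mixed shares 17.5% and 22.7% (KPC-shZEB1). Without collagens the stromal share was 4.84% and 4.15% and the mixed share 23.2% and 17.1%. A minimum of 10 above each library's lower quartile, added after seeing the data, gave mixed shares of 11.4% and 11.98% and a stromal share of 17.1% (KPC-shZEB1).

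With mixed barcodes kept, the G2M ratio was 1.53 and 1.36 and the S-phase ratio 1.27 and 1.19. Of 7063 genes tested, 31 were then higher and 40 lower. The log2 ratios changed sign for Reg1 (-1.13 and -0.42) and Reg3b (-1.20 and -0.76). Against 30000 to 60000 UMIs the G2M ratio was 1.25 and 1.11 and the S-phase ratio 1.07 and 0.972, below 1 in the second library. Here 4 of 7006 genes were higher and 8 lower. As means over barcodes the G2M ratio was 1.55 and 1.49 and the S-phase ratio 1.29 and 1.27, with 50 of 7049 genes higher and 25 lower. Adding 5 CPM left 10 higher genes of 7025. Without the CPM minimum 18230 genes were tested, of which 50 were higher and 101 lower. Between libraries 1365 were then higher and 338 lower, and the number tested there is not given.

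The next alternatives were added after seeing the data. In barcodes with an Epcam UMI the G2M ratio was 1.29 and 1.36 and the S-phase ratio 1.21 (KPC-shZEB1), while Twist2 (0.030) and Mgp (0.092) changed sign in KPC-shV. Without Mki67 or Top2a barcodes, a selection that itself removes mitotic RNA, 10 of 6935 genes were higher. Among them were 0 of the 18 genes higher in the main comparison. The G2M list then had medians of 0.12 and 0.12 over 20 tested genes. In this alternative Reg1 (-0.31, KPC-shV) and Mgp (0.042, KPC-shZEB1) changed sign. Without barcodes of 5 or more Xist UMIs per 10000, Reg1 was at -0.091 (KPC-shZEB1). Without the barcode richest in the gene, Reg1 was at -0.053 (KPC-shZEB1) and Reg3b at -0.28 (KPC-shV).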
